A study of Mus musculus with 6 samples.

Results

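The Rhox genes (reproductive homeobox genes on the X chromosome) of mouse were examined in bulk RNA-seq of testis. All 42 rows of the deposited count table whose symbol starts with Rhox were taken, and the 13 rows with 10 or more counts over the 6 libraries are described in full, out of 54100 rows in the table. Of the 42 rows, 34 are typed as protein coding and 8 as pseudogenes, and they lie within 1092.2 kb of chromosome X (GRCm38, 37213804 to 38306028). The libraries came from cryosections of testis, 3 from H3t deletion mice and 3 from wild-type (WT) mice. H3t is a histone H3 variant of the testis, and the series concerns Leydig cells in testes where spermatogenesis is disrupted. The labels give the genotype as H3t deletion or wild-type, with no strain, age or form of the deleted allele, and name no treatment. Each title carries a number of its own, and the labels do not say further whether libraries are separate mice, and the p-values speak only of the spread among these 6, which may be technical in part.

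Rhox genes encode homeodomain transcription factors and are expressed mainly in reproductive tissues. In mouse testis Rhox5 and Rhox8 are known as genes of Sertoli cells, the somatic cells that surround and feed the germ cells, and Rhox5 is a classical androgen-regulated gene there. Rhox10 and Rhox13 are known as germ cell genes. Rhox10 takes part in setting up spermatogonial stem cells in mouse, and the RHOX13 protein is found in mouse spermatogonia. The Rhox2, Rhox3 and Rhox4 genes are recent tandem copies, which limits how far short reads can be assigned to a single copy.

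The DNA-binding helix shows how alike these genes are over a short conserved stretch. The lines below give 48 bases of the coding sequence around the codon of the conserved tryptophan of that helix, from GENCODE M21 transcripts, and capitals mark bases that differ from Rhox5 at the same place.
Rhox5: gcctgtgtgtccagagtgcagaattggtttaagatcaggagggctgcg
Rhox8: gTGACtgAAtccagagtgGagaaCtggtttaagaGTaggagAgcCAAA
Rhox10: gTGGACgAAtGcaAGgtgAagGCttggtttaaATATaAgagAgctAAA
Rhox13: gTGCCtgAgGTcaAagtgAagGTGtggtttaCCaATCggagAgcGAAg
Rhox11: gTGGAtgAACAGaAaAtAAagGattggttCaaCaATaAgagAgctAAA
Rhox1: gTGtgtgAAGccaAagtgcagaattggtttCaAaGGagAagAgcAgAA
Rhox2a: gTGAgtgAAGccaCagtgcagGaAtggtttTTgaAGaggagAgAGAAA
Rhox2d: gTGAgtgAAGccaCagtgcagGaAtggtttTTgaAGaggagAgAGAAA
Rhox3f: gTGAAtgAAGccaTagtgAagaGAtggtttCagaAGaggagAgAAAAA
Rhox3h: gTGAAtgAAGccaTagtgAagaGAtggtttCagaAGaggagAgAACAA
Rhox8 shared 33 of the 48 bases with Rhox5, Rhox13 shared 27 and Rhox11 shared 25. The Rhox2a and Rhox2d stretches were the same in all 48 bases, and those of Rhox3f and Rhox3h in 47.

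Whole transcripts, which bear more on whether counts belong to a single gene, differed in how much they share. No 50-base stretch of Rhox1, Rhox5, Rhox10, Rhox11, Rhox13, Rhox11-ps2 or Rhox2-ps occurred in another annotated gene, and for Rhox8 4.9% did. Among the other members the shared part was 43.6% for Rhox7-ps2, 44.7% for Rhox2d, 62.0% for Rhox3f, 69.2% for Rhox3h and 91.1% for Rhox2a. Counts of these last 5 are therefore uncertain as to the copy they came from. No annotated gene overlapped the span of any member except Rhox3h, which overlaps Gm24147 on the same strand.

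The libraries held 8037826 to 10702930 counts each, so 1 count was worth about 0.0934 to 0.124 CPM before any scaling factor. CPM is the unit used here for counts brought to an equal library total. H3f4, the current symbol of H3t, had 0 counts in each H3t deletion library, against 390, 571 and 356 in WT. Of 17038 genes tested, 14403 (84.5%) passed a false discovery rate of 0.05 in edgeR's quasi-likelihood fit (adjusted by Benjamini-Hochberg over all of them). Values below are CPM scaled by TMM, a method that assumes most genes unchanged, unless another scaling is named. With TMM 1 count was worth 0.0953 CPM in deletion replicate 3 and 0.156 CPM in WT replicate 1. All 11 meiotic and all 8 spermatid marker genes fell with TMM, though Dmc1 was not called without WT replicate 3 (edgeR adjusted p = 0.0637) or with no scaling factor (log2 fold change 0.01, edgeR adjusted p = 0.976). The summed levels of the meiotic and the spermatid list were 282 to 348 and 9.53 to 57.2 CPM in the deletion, against 4711 to 5243 and 18520 to 20220 CPM in WT. In bulk tissue fewer cells of a type and less RNA per cell cannot be told apart. The median log2 fold change of all genes was -0.19 with TMM, 0.45 with no scaling factor, -1.17 with libraries set to equal levels of undifferentiated spermatogonial genes and -2.42 with libraries set to equal levels of Sertoli cell genes. Of the genes called, 45.4%, 56.6%, 24.6% and 4.33% were higher under these 4 scalings, so each direction below is tied to its scaling.

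The Sertoli cell forms made up most of the Rhox counts. Rhox5 and Rhox8 together gave 93.62% to 94.21% of all Rhox counts in the H3t deletion libraries, against 73.99% to 77.8% in the WT libraries, with no overlap. All 42 rows held 2694, 2797 and 2381 counts in the deletion, against 619, 714 and 545 in WT. Of the 42 rows, 14 had 0 counts in every library, among them all 8 Rhox4 copies. The Rhox4 copies share 66.8% to 98.2% of their 50-base stretches with other genes. If reads that match several copies were left uncounted, a count of 0 need not mean no expression. A further 15 rows had 1 to 9 counts in all, 5 of them counted in the deletion only, 4 in WT only and 6 in both, with at most 6 counts in a library.

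**Figure D1:**
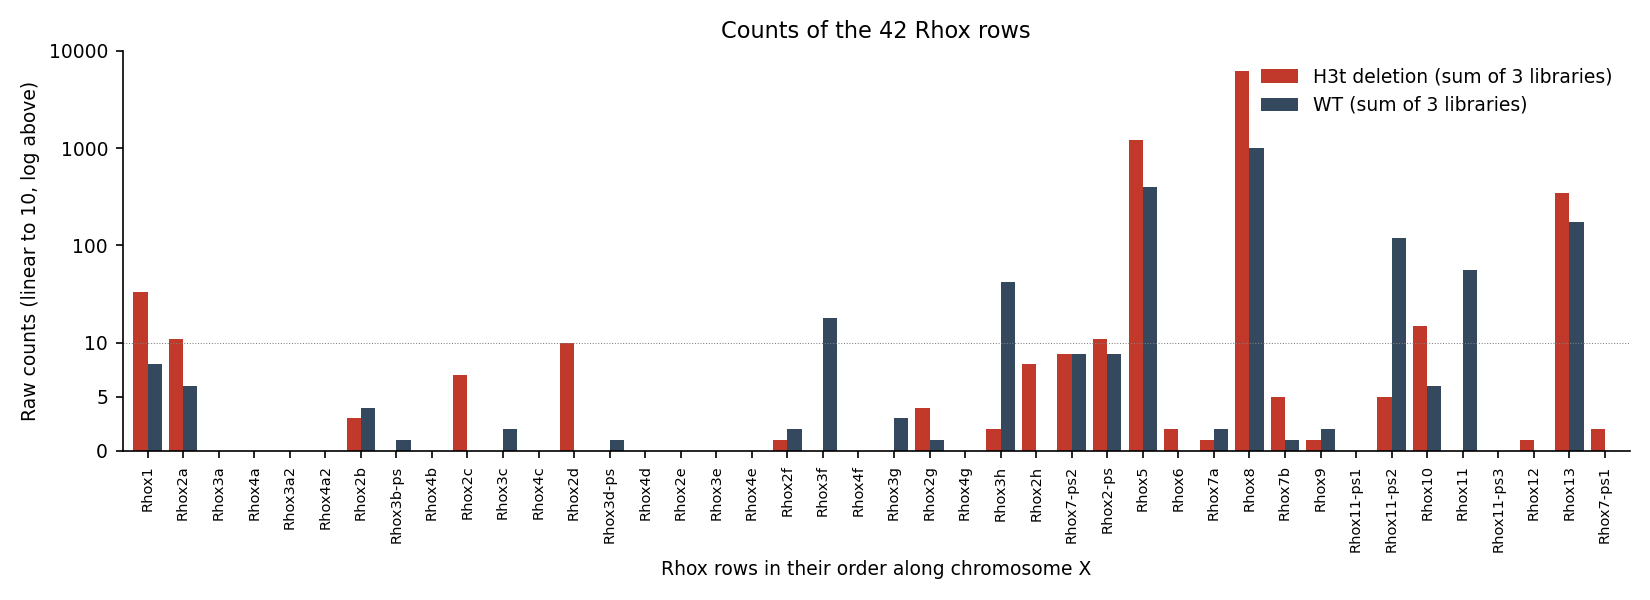
Raw counts of the 42 Rhox rows, summed over the 3 H3t deletion libraries (red) and the 3 WT libraries (dark blue), in their order along chromosome X; the axis is linear to 10 and logarithmic above, and the dotted line marks 10 counts. Rhox8, Rhox5 and Rhox13 hold most counts, while Rhox11 and Rhox11-ps2 are nearly confined to the WT bars, at 0 and 5 counts in the deletion against 56 and 120 in WT.

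Of the 13 members, 4 held enough counts for the test across all genes, and 3 of these passed it, 2 higher and 1 lower in the deletion. Among all genes tested 38.4% were called higher and 46.1% lower. The TMM-scaled levels of 8 of the 13 members did not overlap between the groups, where 85.9% of all genes tested did not. That share covers only genes that passed the filter on low counts, so it is no like measure for all 13 members. Of the 4 tested members, Rhox5, Rhox8 and Rhox11-ps2 did not overlap and Rhox13 did. The 9 members not tested had too few counts for the test, so the 4 tested genes do not speak for the cluster.

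Rhox8, one of the Sertoli cell forms, was the most abundant member and rose with TMM scaling, though not at Sertoli level. Its level was 199, 199 and 174 CPM in replicates 1, 2 and 3 of the H3t deletion, against WT levels of 52.3, 43.1 and 42.7 CPM. Every deletion library lay above every WT library. The means were 190.4 ± 14.6 CPM in deletion testes and 46.1 ± 5.42 CPM in WT (SD, n = 3 each). The log2 fold change was 2.05 ± 0.11 (SE), and edgeR's quasi-likelihood fit gave an adjusted p = 5.42e-11. The gene (ENSMUSG00000064137) lies at 37874778 to 37878944 on the minus strand of chromosome X.

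Rhox5, the androgen-regulated Sertoli form, rose by less with TMM scaling and was lower at Sertoli level. Its level was 34.1, 39.4 and 38.9 CPM in replicates 1, 2 and 3 of the deletion, against WT levels of 19.0, 18.4 and 17.1 CPM. The groups did not overlap here either. The means were 37.5 ± 2.95 CPM in deletion testes and 18.1 ± 0.987 CPM in WT (SD, n = 3 each). The log2 fold change was 1.05 ± 0.14 (SE), and edgeR's quasi-likelihood fit gave an adjusted p = 5.44e-06. The annotated gene (ENSMUSG00000095180) spans 37804842 to 37808876 on the plus strand of chromosome X. Within each library there were 5.83, 5.04 and 4.46 counts of Rhox8 per count of Rhox5 in the deletion, against 2.75, 2.35 and 2.50 in WT. This ratio needs no scaling factor; it was chosen after the values were seen and was not tested.

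Rhox13, a germ cell form, did not pass the test with TMM scaling. Its level was 12.3, 10.5 and 9.44 CPM in replicates 1, 2 and 3 of the deletion, against WT levels of 9.96, 6.05 and 8.18 CPM. The groups overlapped, since WT replicate 1 lay above deletion replicate 3. The means were 10.8 ± 1.47 CPM in deletion testes and 8.06 ± 1.96 CPM in WT (SD, n = 3 each). The log2 fold change was 0.43 ± 0.24 (SE), and edgeR's quasi-likelihood fit gave an adjusted p = 0.113. With no scaling factor beyond the total count it was 1.07 (edgeR adjusted p = 0.000614), where 86.9% of all genes were called, 49.2% higher and 37.7% lower. Rhox13 (ENSMUSG00000050197) lies at 38121219 to 38129967 on the plus strand of chromosome X.

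Rhox10, the other germ cell form, was near the limit of detection. It had 0, 13 and 2 counts in deletion replicates 1, 2 and 3, against 1, 5 and 0 counts in WT. Deletion replicate 2 held 13 of its 21 counts, and the groups overlapped. The ratio of the summed counts, corrected for library size, was 1.71, with an exact 95% interval of 0.626 to 5.37 that covers counting error only. No difference of Rhox10 was detectable at this depth.

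**Figure D2:**
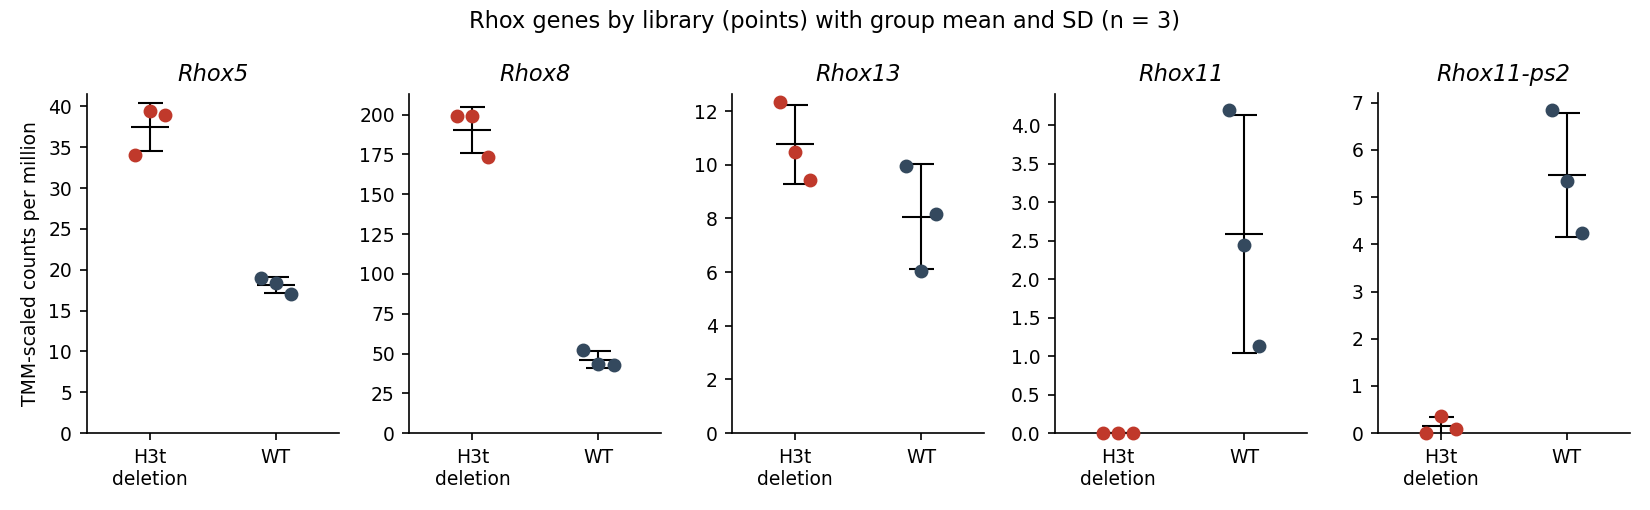
Level of 5 Rhox genes in each library in TMM-scaled CPM, on an axis from 0 for each gene, with H3t deletion (red) left of WT (dark blue); points are libraries and bars give the mean and SD of 3. The deletion points lie above all WT points for Rhox5 and Rhox8, overlap them for Rhox13, and lie at or near 0 for Rhox11 and Rhox11-ps2.

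With TMM scaling Rhox11 and its pseudogene Rhox11-ps2 moved the other way from the Sertoli forms. At Sertoli level the log2 fold changes of Rhox5, Rhox8 and Rhox11-ps2 were all negative, at -1.19, -0.19 and -7.22. Rhox11-ps2 (ENSMUSG00000081133, minus strand, 37940816 to 37945602) had 0, 4 and 1 counts in deletion replicates 1, 2 and 3, against 44, 46 and 30 in WT. It averaged 0.152 ± 0.187 CPM in deletion testes and 5.48 ± 1.31 CPM in WT (SD, n = 3 each). Its log2 fold change was -5.03 ± 0.65 (SE), and edgeR's quasi-likelihood fit gave an adjusted p = 3.05e-06. Without deletion replicate 2, which held 4 of the 5 deletion counts, the value was -6.47.

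Rhox11 (ENSMUSG00000051038, minus strand, 38076594 to 38085141) had 0 counts in each deletion library, against 27, 21 and 8 counts in WT. WT replicates 1, 2 and 3 stood at 4.20, 2.44 and 1.13 CPM. Against a floor of 3 counts over the deletion libraries, 0.0926 CPM, it was at least 27.98-fold lower in the deletion. The gene missed the filter on low counts. In a fit that kept every gene with at least 1 count it was called lower (edgeR adjusted p = 9.64e-10), where 54.5% of all genes in that fit were called and 31.8% were called lower. That fit gave Rhox8 and Rhox11-ps2 edgeR adjusted p-values of 1.38e-72 and 4.97e-15, against 5.42e-11 and 3.05e-06 in the main fit. Its p-values may therefore be too small. Where a left-out library let Rhox11 pass the filter, it was called lower with edgeR adjusted p-values of 3.42e-05 to 0.000118.

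The 250 bases before the RefSeq starts of Rhox11 and Rhox11-ps2 are shown because both were lower in the deletion. Capitals mark the hexamer AGAACA or its reverse complement TGTTCT, the core of androgen response elements.
Rhox11, GRCm38.p6, chrX:38085140-38085389, minus strand: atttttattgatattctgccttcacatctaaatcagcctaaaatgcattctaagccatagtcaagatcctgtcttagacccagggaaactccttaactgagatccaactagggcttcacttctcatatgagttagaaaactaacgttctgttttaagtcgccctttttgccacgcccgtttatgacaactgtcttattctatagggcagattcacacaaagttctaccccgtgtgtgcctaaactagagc
Rhox11-ps2, GRCm38.p6, chrX:37945665-37945914, minus strand: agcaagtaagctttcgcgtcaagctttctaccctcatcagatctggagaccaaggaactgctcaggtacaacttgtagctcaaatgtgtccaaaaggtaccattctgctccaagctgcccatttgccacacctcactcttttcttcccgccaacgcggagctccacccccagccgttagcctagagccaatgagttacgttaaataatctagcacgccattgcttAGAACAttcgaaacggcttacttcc
The hexamer occurred once in the Rhox11-ps2 window, starting 25 bases before the RefSeq start, and not in the Rhox11 window. On both strands it is found in 16.1% of 32851 RefSeq promoter windows of this length. Neither window held the GATA factor sequence AGATAA or TTATCT, found in 9.99% of windows, or the cyclic AMP response element TGACGTCA, found in 1.55%.

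The RefSeq table held a promoter for 28 of the 42 rows. The window of Rhox13 (chrX:38120590-38120839, plus strand) held TGTTCT and TTATCT overlapping by a base, at 57 and 52 bases before the RefSeq start. The windows of Rhox1, Rhox3h and Rhox5 also held the androgen response core, and those of Rhox2a, Rhox2d, Rhox3f and Rhox10 held none of these sequences. The Rhox5 window (chrX:37754358-37754607, plus strand) belongs to a RefSeq start far upstream of the annotated gene given above. Rhox8, Rhox2-ps and Rhox7-ps2 had no entry.

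The remaining 7 members had 10 to 44 counts in all. Rhox3f had 0 counts in each deletion library, against 8, 7 and 3 in WT, and was at least 8.94-fold lower. Rhox3h had 0, 0 and 2 counts in the deletion, against 8, 28 and 6 in WT, a ratio of 0.0325 with an exact 95% interval of 0.00381 to 0.125 for counting error. Both were called lower in the fit that kept every counted gene, with edgeR adjusted p-values of 0.00161 and 1.71e-05. The limit given above for the p-values of that fit holds here too. Their WT counts may include reads of other Rhox3 copies.

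Rhox1 had 8, 14 and 11 counts in the deletion, against 0, 5 and 3 in WT. The ratio of its summed counts was 2.82, with an exact 95% interval of 1.275 to 7.06 that covers counting error only. Its groups did not overlap, yet it was not called in that fit (log2 fold change 1.52 ± 0.89 SE, edgeR adjusted p = 0.140). Rhox2d had 4, 1 and 5 counts in the deletion and 0 in each WT library, at least 2.30-fold higher, and was not called (edgeR adjusted p = 0.0728). Rhox2d was also the member nearest the minimum of 10 counts, with Rhox2h just below it at 8 counts, all of them in the deletion. Rhox2a, Rhox2-ps and Rhox7-ps2 overlapped between the groups and were not called. In all, 4 of the 13 members were called lower in that fit (Rhox11, Rhox11-ps2, Rhox3f and Rhox3h) and 2 higher (Rhox5 and Rhox8), where 22.7% of all genes in it were called higher, and 31.8% lower. By edgeR's quasi-likelihood test 0 of the 15 rows with 1 to 9 counts were called there, and 0 had an unadjusted p below 0.05; no other tool was run on them.

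Per kilobase of annotated exon, the order of levels in the H3t deletion was Rhox8, Rhox5, Rhox13, at 158 ± 12.1, 49.7 ± 3.91 and 12.3 ± 1.68 CPM per kb (SD, n = 3). The libraries of neighbouring genes in this order did not overlap. In WT the order was Rhox8 at 38.2 ± 4.50, Rhox5 at 24.1 ± 1.31, Rhox11-ps2 at 12.1 ± 2.91, Rhox13 at 9.20 ± 2.24 and Rhox11 at 3.19 ± 1.90 CPM per kb. Here Rhox11-ps2, at 9.38 to 15.2 CPM per kb, and Rhox13, at 6.90 to 11.4 CPM per kb, overlapped. The remaining members stayed below 2 CPM per kb on average in both groups.

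Set against other Sertoli cell genes, the Sertoli forms parted. All 21 genes of a Sertoli list with no Rhox gene in it rose with TMM scaling, with a median log2 fold change of 2.24, where the median of all genes was -0.19. Their summed level was 5325 to 5406 CPM in the deletion, against 1116 to 1249 CPM in WT, and none was at 0 in either group. The log2 fold change of Rhox8 lay among them, with 14 of the 21 above it and 7 below. That of Rhox5 lay below all 21, the nearest being Cst9 at 1.56 and Ctsl, a cathepsin of Sertoli cells, at 1.64.

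**Figure D3:**
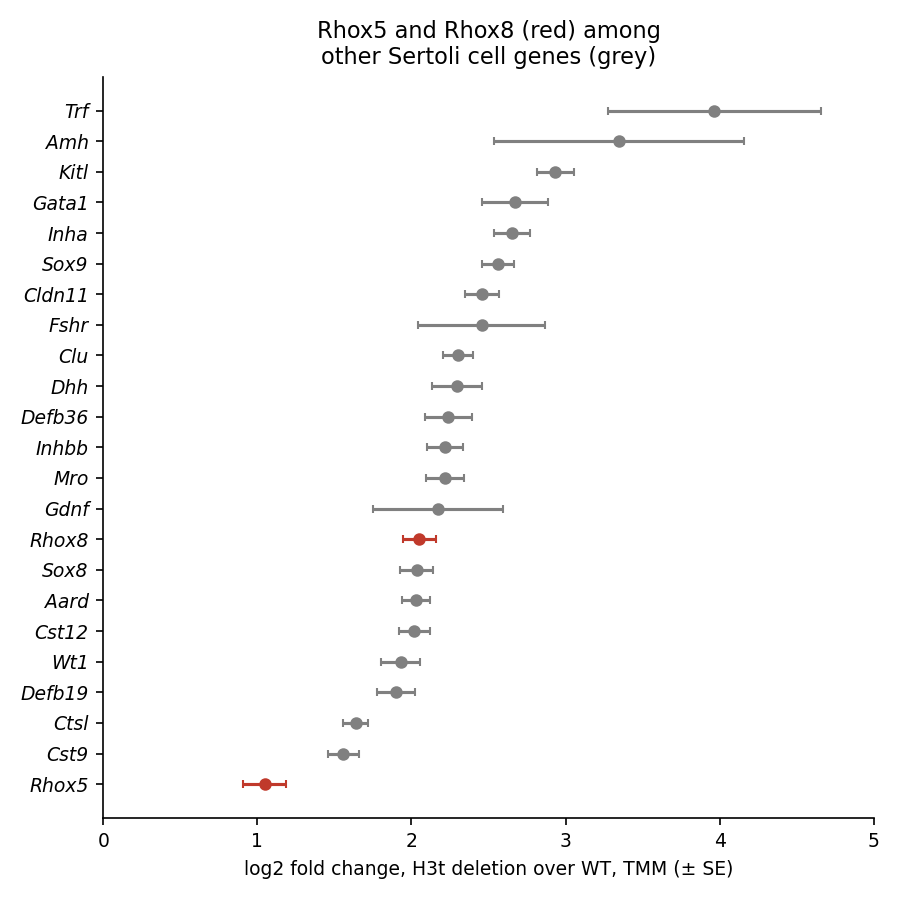
Log2 fold change (H3t deletion over WT, TMM scaling) with its SE for Rhox5 and Rhox8 in red and 21 other Sertoli cell genes in grey, sorted from high to low. Rhox8 at 2.05 stands among the Sertoli genes and Rhox5 at 1.05 below all of them.

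The level of each Sertoli form minus the mean level of the Sertoli list in the same library needs no scaling factor. For Rhox5 this difference of log2 CPM was -1.12, -0.99 and -1.01 in deletion replicates 1, 2 and 3, against 0.45, 0.12 and 0.02 in WT. Rhox5 was thus below the list in every deletion library and above it in every WT library. The group difference was -1.23, and the exact two-sided permutation test gave p = 0.1, the smallest that 3 against 3 libraries allow (0.3 adjusted over the 12 such differences computed). For Rhox8 the difference was 1.42, 1.34 and 1.15 in the deletion, against 1.90, 1.34 and 1.34 in WT, and the groups overlapped. The group difference was -0.22 (exact permutation p = 0.4, adjusted 0.436).

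With the Sertoli list brought to the same level in all libraries, the log2 fold change of Rhox5 was -1.19 ± 0.18 (SE), called lower, and edgeR's quasi-likelihood fit gave an adjusted p = 4.84e-06. In that fit 80.7% of all genes were called, 3.49% higher and 77.3% lower. Rhox8 was at -0.19 ± 0.16 (SE) and not called (edgeR adjusted p = 0.285). The sign of either value depended on the scaling, which shifts all genes by about the same amount and so leaves the gap between them as it is.

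**Figure D4:**
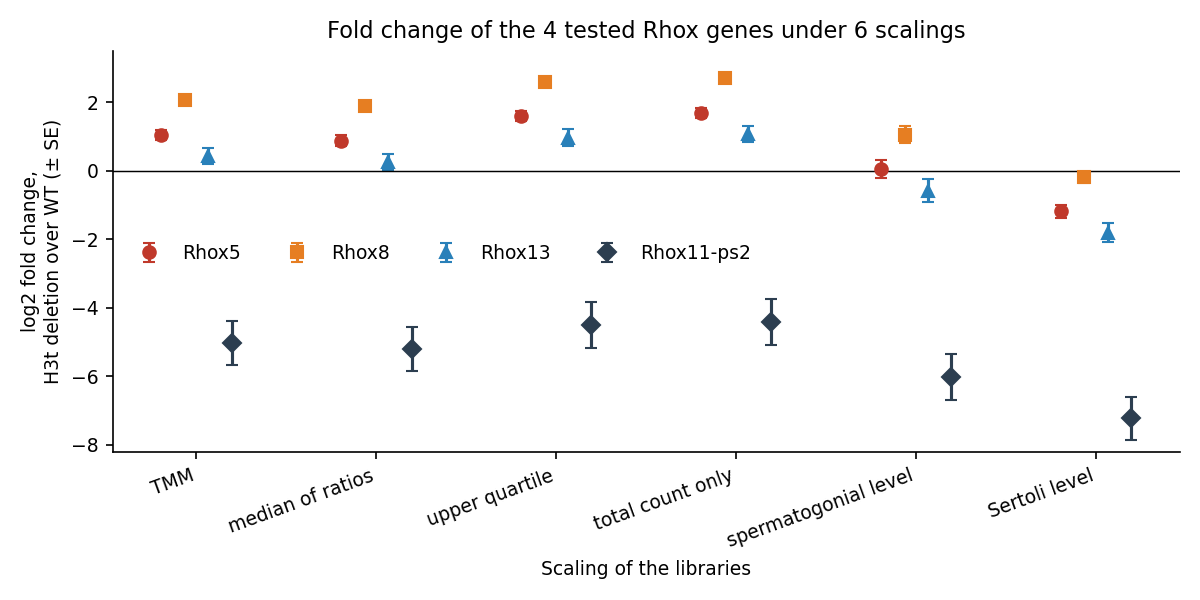
Log2 fold change (H3t deletion over WT) with its SE for the 4 tested Rhox genes under 6 scalings of the libraries; the line marks no change. A scaling shifts all 4 genes by about the same amount, so it is no finding that their order holds across scalings. Rhox5 is at 1.05 with TMM and -1.19 at Sertoli level, and Rhox11-ps2 stays below -4.

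The germ cell form Rhox13 was set against germ cell lists in the same way. Relative to undifferentiated spermatogonial genes it was at 0.53, 0.00 and -0.14 in deletion replicates 1, 2 and 3, against 1.29, 0.07 and 0.84 in WT (exact permutation p = 0.2). Relative to differentiating spermatogonial genes it was at -0.18, -0.39 and -0.63, against -0.53, -1.30 and -0.90 in WT (exact permutation p = 0.2). In both cases the groups overlapped. With the median of each list in place of its mean they did not, with group differences of -1.21 and 0.62 (exact permutation p = 0.1 each). With TMM scaling the log2 fold changes of the differentiating list ran from -6.21 for Dmrtb1 to 3.13 for Kit. The next lowest after Dmrtb1 was Sohlh2 at -0.84. Dmrtb1 alone thus lowers the mean of this list in the deletion, and it may shift the median. Whether the positive difference of Rhox13 to this list holds without Dmrtb1 was not tested. Relative to meiotic genes Rhox13 was at -0.36, -0.19 and -0.39 in the deletion, against -4.44, -5.08 and -4.86 in WT, a group difference of 4.48 (exact permutation p = 0.1, adjusted 0.3). Rhox13 therefore stood near the meiotic list in the deletion and far below it in WT. With TMM scaling the list itself fell, at a median log2 fold change of -3.23, while Rhox13 was at 0.43 and not called. The difference to this list therefore does not show a change of Rhox13. Among the 9 genes of the undifferentiated list that were tested 5 rose and 1 fell (median log2 fold change 1.78, or -0.42 at Sertoli level), and among the 7 of the differentiating list 3 rose and 2 fell (median 0.43, or -1.79 at Sertoli level). Sohlh2, 1 of those that fell, was not called with no scaling factor (edgeR adjusted p = 0.398). When libraries were scaled to the undifferentiated list, Rhox13 was at -0.58 ± 0.34 (SE, edgeR adjusted p = 0.109) and Rhox5 at 0.05 ± 0.27 (SE, edgeR adjusted p = 0.876). In that fit 76.0% of all genes were called, 18.7% higher and 57.3% lower.

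Rhox10 gave values too scattered to read against these lists. Its differences to the undifferentiated and the differentiating list overlapped between the groups (group differences of -0.72 and 0.39, exact permutation p = 0.4 and 0.6). The value of -0.72 was -1.41 without deletion replicate 2 and -0.23 without deletion replicate 1. The value of 0.39 turned to -0.37 without deletion replicate 2 and to -0.07 without WT replicate 3. The fall of Dmrtb1 given above enters the value of 0.39 too. Relative to the meiotic list Rhox10 was at -4.76 ± 1.54 in the deletion and -9.12 ± 1.03 in WT (SD, n = 3, exact permutation p = 0.1, adjusted 0.3). Since that list itself fell, this does not show a change of Rhox10.

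Sertoli forms and germ cell forms were also compared directly within libraries. Log2 Rhox8 minus Rhox13 was 3.99, 4.22 and 4.17 in deletion replicates 1, 2 and 3, against 2.37, 2.79 and 2.35 in WT. These groups did not overlap, with a difference of 1.62 (exact permutation p = 0.1, adjusted 0.3). Log2 Rhox5 minus Rhox13 was 1.45, 1.89 and 2.02 in the deletion, against 0.92, 1.57 and 1.04 in WT, with overlap (difference 0.61, exact permutation p = 0.2). Against Rhox10 the differences were 1.74 for Rhox8 and 0.73 for Rhox5, both with overlap (exact permutation p = 0.2 and 0.4). Without deletion replicate 1 they were 1.11 and 0.20, and without deletion replicate 2 they were 2.44 and 1.43. Over the 12 within-library differences the adjusted p ranged between 0.3 and 0.6.

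**Figure D5:**
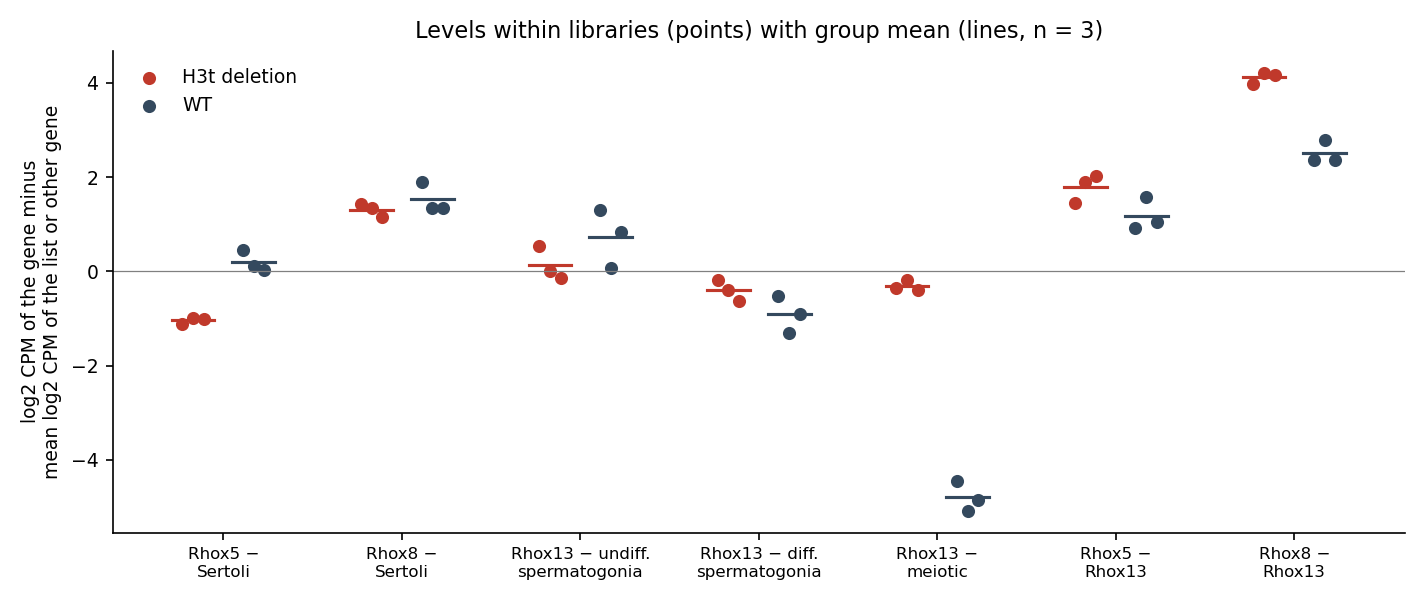
Log2 CPM of a Rhox gene minus the mean log2 CPM of a marker list, or minus that of another Rhox gene, in each library, with H3t deletion (red) left of WT (dark blue) and lines at the mean of 3. The groups are apart for Rhox5 against the Sertoli list (-1.04 and 0.20), Rhox13 against the meiotic list (-0.32 and -4.79) and Rhox8 against Rhox13 (4.12 and 2.50). The meiotic list itself is lower in the deletion.

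Other androgen-responsive Sertoli genes rose with Rhox5. Of 6 tested, 5 rose with TMM scaling, where 38.4% of all genes tested were called higher. The median log2 fold change over the 6 was 1.91, and -0.31 at Sertoli level. Serpina5, a serine protease inhibitor, was at 405 ± 13.2 CPM in deletion testes and 67.0 ± 2.80 CPM in WT (SD, n = 3, log2 fold change 2.59). Drd4, a dopamine receptor, was at 2.65, Tubb3, a beta tubulin, at 2.30, and B4galnt1, a ganglioside enzyme, at 1.53. Eppin, a protease inhibitor of the male tract, was at 1.25. At Sertoli level Eppin and B4galnt1 were called lower at -0.97 and -0.70 and Serpina5 higher at 0.36 (edgeR adjusted p = 0.000151, 0.000724 and 0.0206), while Drd4 and Tubb3 were at 0.42 and 0.07 and not called. Cldn3, a tight junction claudin, had a log2 fold change of -0.15 ± 0.30 (SE) and did not pass the test with TMM scaling. At Sertoli level Cldn3 was called lower, at -2.38 (edgeR adjusted p = 1.49e-06).

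A list of 13 possible regulators of the Rhox cluster held the androgen receptor, gonadal transcription factors and DNA methylation genes. With TMM scaling 10 rose, 2 fell and 1 did not pass, with a median log2 fold change of 2.03 (-0.20 at Sertoli level). Among all genes tested 38.4% were called higher and 46.1% lower. The gonadal transcription factors Nr5a1, Gata1, Sox9, Gata4, Sox8, Wt1 and Dmrt1 rose with TMM scaling, by 2.79, 2.67, 2.56, 2.50, 2.03, 1.93 and 1.39. At Sertoli level Nr5a1, which Leydig cells express too, was called higher at 0.56 and Dmrt1, which germ cells share, lower at -0.83; Sox8 and Wt1 turned to -0.20 and -0.29, not called. Gata1, Sox9, Sox8 and Wt1 also belong to the Sertoli list.

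The DNA methylation genes were mixed. The de novo methyltransferases Dnmt3a and Dnmt3b rose by 2.13 and 1.24, and at Sertoli level Dnmt3a was at -0.11 and not called while Dnmt3b was called lower at -0.98. Uhrf1, which directs maintenance methylation, fell to 20.7 ± 2.50 CPM in the deletion, against 132 ± 0.681 CPM in WT (SD, n = 3, log2 fold change -2.67), and Setdb1, a histone H3 methyltransferase, fell by 0.75 with TMM but was at -0.11 and not called with no scaling factor (edgeR adjusted p = 0.394). Dnmt1, the maintenance methyltransferase, was at 0.20 ± 0.09 (SE) and did not pass the test (edgeR adjusted p = 0.0589). It passed without WT replicate 3, at 0.24 (edgeR adjusted p = 0.0453), and with no scaling factor, at 0.84 (edgeR adjusted p = 4.21e-07). Methylation itself was not measured.

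Of 3 genes reported downstream of RHOX proteins in mouse only Dmrt1 had enough counts to be tested. Unc5c, a netrin receptor that RHOX5 represses, and Ins2 did not pass the filter on low counts. No statement on RHOX target genes can be made from them.

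Other X-linked genes were compared, and the part of X position in the Rhox values was not tested. Among 624 X-linked genes tested, 65.9% were called higher and 24.0% lower with TMM scaling, with a median log2 fold change of 1.59. Of 10 tested X-linked genes near the cluster, 7 rose and 1 fell; the median was 1.498 with TMM and -0.71 at Sertoli level. Nkap, Zbtb33 and Lamp2, a lysosomal membrane protein, rose by 2.42, 1.88 and 1.82. Akap14, an anchoring protein of the sperm tail, fell to 0.122 ± 0.141 CPM in the deletion, against 27.5 ± 1.49 CPM in WT (SD, n = 3, log2 fold change -7.65, or -8.82 without deletion replicate 1). Upf3b and Cul4b, at 0.28 and 0.12, did not pass the test, though both did with no scaling factor, at 0.91 and 0.76 (edgeR adjusted p = 1.07e-05 and 1.75e-06). Without deletion replicate 3 Upf3b passed, at 0.44 (edgeR adjusted p = 0.00291).

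Of 6 other X-linked homeobox genes 2 were tested, and 1 of them was called lower. Esx1, a germ cell gene, fell to 4.88 ± 0.511 CPM in the deletion, against 8.04 ± 1.30 CPM in WT (log2 fold change -0.71, edgeR adjusted p = 0.0232). With no scaling factor it was at -0.07 and not called (edgeR adjusted p = 0.809). Its call was also lost without deletion replicate 1 (edgeR adjusted p = 0.0713) and without WT replicate 1 (edgeR adjusted p = 0.0786).

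The markers of other testis cell types moved too, and their part in the Rhox values was not tested. All 7 Leydig and all 8 macrophage marker genes rose with TMM scaling, where 38.4% of all genes tested were called higher. Their summed levels were 2675 to 2978 and 460 to 541 CPM in the deletion, against 302 to 341 and 98.5 to 107 CPM in WT. The median log2 fold changes were 3.16 and 2.62 with TMM, and 0.91 and 0.40 at Sertoli level. At Sertoli level Mrc1 was called lower, at -0.37 (edgeR adjusted p = 0.0179), and Insl3, Cd68, Adgre1 and C1qb were not called. Of 5 peritubular myoid and 5 endothelial genes 4 each rose with TMM, with medians of 0.92 and 1.42 that were -1.31 and -0.78 at Sertoli level. None of these marker genes was at 0 in either group.

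The genes whose profile over the 6 libraries was most like each tested member's were found by the smallest root-mean-square difference of centred log2 CPM among 9504 genes with at least 10 CPM. For Rhox5 they were Emc8, Igsf3 and Fbxl18, at 0.05, 0.06 and 0.06, and for Rhox8 they were Zdhhc16, Mycn and Dbi, at 0.04, 0.05 and 0.06. For Rhox13 they included Zfp219 and Bloc1s4, at 0.04 and 0.08. For Rhox11-ps2 the nearest were Pld6, a mitochondrial nuclease of the piRNA pathway, Muc16 and Nek10, at 0.15, 0.19 and 0.23. These distances mostly reflect the size of the group difference and are given as a description.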

How the data were processed

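Total RNA of testis cryosections was extracted with Trizol and a column and libraries were prepared with the TaKaRa SMART-Seq Stranded kit (per the labels' protocols). The authors deposited raw counts per gene, with no normalization. Trim Galore, HISAT2, featureCounts and GRCm38 are named in the submitters' processing notes; their versions, the annotation release and whether strand was used in counting were not given in the sources used here. All 54100 row IDs matched GENCODE M21 on the same chromosome, 0 rows were unnamed, and 0 sample columns were unused.

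Genes kept by filterByExpr were tested with edgeR 4.0.16 (R 4.3.3), by the quasi-likelihood test with TMM factors (deletion libraries 1.21 to 1.27, WT libraries 0.794 to 0.806) and Benjamini-Hochberg adjustment over all 17038 genes at a false discovery rate of 0.05. Steps were tested on simulated data. DESeq2 1.42.0, limma 3.58.1 (voom), other scalings, other filters and each library left out were tried. Within-library differences used log2 CPM with a prior count of 2 and an exact two-sided permutation test (scipy 1.17.1). Replicates of a group differed beyond sampling noise (chi-square per degree of freedom 4.48 to 6.88). Intervals and the floor of 3 counts cover counting error only.

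Named genes were the Rhox rows with 10 or more counts, members of the pathway lists, the 3 genes most like each tested Rhox gene (smallest root-mean-square difference of centred log2 CPM among genes of at least 10 CPM, clone names left out), and marker genes as examples. Cst9 and Ctsl were named after their values were seen, as nearest to Rhox5. Members and lists were chosen with earlier results of these data known. Sequences came from GENCODE M21 transcripts and RefSeq promoters on GRCm38.p6. Results for some genes of these lists are not reported here.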

Additional observations from a re-analysis of the deposited data

How the results depend on the processing

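The scaling of the libraries decided the most. At Sertoli level the log2 fold changes were -1.19 for Rhox5, -0.19 for Rhox8 and -1.81 for Rhox13, all opposite in sign to the TMM values. Of these, Rhox8 was not called at Sertoli level and Rhox13 was not called with TMM. At spermatogonial level Rhox5 was at 0.049 and no longer called, while Rhox8 was still called higher, at 1.05 (edgeR adjusted p = 5.30e-05). Rhox13 was at -0.58 there and not called. Rhox13 was called higher with upper-quartile factors (0.97) and with no scaling factor (1.07). Rhox11-ps2 was lower in every scaling, tool, filter and left-out library tried. The cause of these shifts was not tested. The number of genes called over the table stayed within 1.5 times of 14403 under every alternative.

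Leaving out each library gave 14338 to 14878 genes called, and log2 fold changes of 0.97 to 1.12 for Rhox5, 1.97 to 2.12 for Rhox8, 0.23 to 0.57 for Rhox13 and -6.47 to -4.47 for Rhox11-ps2. Within libraries, Rhox5 minus the Sertoli list ran between -1.32 and -1.11 and Rhox8 minus it between -0.32 and -0.04. Rhox10 minus the differentiating list ran between -0.37 and 0.98, turning to -0.37 without deletion replicate 2 and to -0.07 without WT replicate 3. No paired analysis was possible because the titles carry no number shared between the groups. With 3 libraries a group the exact permutation test cannot go below 0.1, and 9 of the 13 members had too few counts for the test across genes.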

Other observations

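Counts were also summed over Rhox rows that share a family name. The Rhox3 copies share 60.5% to 100% of their 50-base stretches with other genes, while Rhox11 and its pseudogenes share none. This grouping was chosen after the values were seen and was not tested. The 9 Rhox3 rows held 0, 0 and 2 counts in H3t deletion replicates 1, 2 and 3, against 16, 40 and 11 in WT. The 9 Rhox2 rows held 23, 10 and 22 counts in the deletion, against 6, 8 and 8 in WT. In TMM-scaled CPM the Rhox2 sums were 2.12, 0.904 and 2.10 in the deletion, against 0.934, 0.930 and 1.13 in WT, so the groups overlapped. The Rhox3 sums did not overlap, at 0, 0 and 0.191 CPM in the deletion, against 2.49, 4.65 and 1.55 CPM in WT. The 4 Rhox7 rows held 1, 3 and 13 counts in the deletion, against 1, 8 and 3 in WT, with overlap. The 4 rows of Rhox11 and its pseudogenes held 0, 4 and 1 counts in the deletion, against 71, 67 and 38 in WT.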
